A study of Mus musculus with 6 samples.

Results

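The genes described here encode the nuclear subunits of the mitochondrial respiratory chain and of ATP synthase, together with genes that share their symbol starts. They were chosen by gene symbol on the array: every symbol starting with Nduf, Sdh, Uqcr, Cox4, Cox5, Cox6, Cox7, Cox8 or Atp5, plus Cyc1 and Cycs, with Cox7a1 and Cox8b left out. The rule found 84 genes on 98 probes, of 17086 named genes on 23556 probes. By their known roles 75 of them encode subunits or cytochrome c, and the other 9 encode assembly factors or other proteins whose genes share a symbol start. No measured value entered the choice.

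RNA came from epididymal white fat (eWAT), a visceral fat pad of the mouse, taken at 10 weeks of age. It held 3 db/db mice, which carry the db mutation of the leptin receptor gene Lepr on both alleles and are obese and severely hyperglycemic per the labels, and 3 lean db/+ controls, which carry that mutation on 1 allele. The file headers mark all 6 mice as given vehicle, so no untreated animal and no mouse free of the db mutation is among the 6. Neither the vehicle nor the composition of the pool is stated. Each of 6 two-colour arrays held 1 mouse in Cy5 and the pool of lean eWAT in Cy3, with no dye swap, and the replicates are biological per the labels. The log2 ratio below is the mouse over the lean pool, and the log2 fold change is the mean ratio of the 3 db/db arrays minus that of the 3 db/+ arrays, followed by its SE from limma (n = 3 arrays per group). A gene is called lower or higher where the limma adjusted p, taken over all 17024 genes tested, was under 0.05. Precision is limited by there being only 3 arrays per group.

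The respiratory chain carries electrons from NADH through complex I, or from succinate through complex II, to coenzyme Q, then through complex III and cytochrome c to complex IV, where oxygen is reduced. Complexes I, III and IV pump protons across the inner mitochondrial membrane, and complex V, the ATP synthase, lets them flow back to make ATP. The genes measured here are nuclear; the subunits encoded by mitochondrial DNA fall outside the symbol rule. In fat cells the chain oxidises the electrons released by fatty acid and glucose breakdown.

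Most respiratory chain genes had lower ratios in db/db than in db/+ eWAT. Of 83 genes tested, 26 fell and 1, Atp5g1, rose, and 56 did not pass the threshold. Across all genes on the array 3.77% were called lower and 2.92% higher (6.68% in either direction), against 31.3% of the respiratory chain genes called lower. The median log2 fold change was -0.43, which is 74.2% of the db/+ level, with a range of -1.06 to 0.47, while the median over all genes tested was -0.00. The sign was negative for 75 of the 83 genes. All 3 db/db ratios lay below all 3 db/+ ratios for 61 of the 83 genes, against 14.7% of all genes measured on 6 arrays, and above them for 2 genes, Atp5g1 and Cox6a2, against 11.4%. The median ratio of the 83 genes was 0.08, -0.10 and -0.03 on the 3 db/+ arrays and -0.35, -0.42 and -0.55 on the 3 db/db arrays, so the groups did not overlap. The tissue was measured in bulk, so fewer cells rich in these transcripts and less transcript per cell cannot be told apart.

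The number of calls depended on single arrays far more than the sizes did. Without db/+ replicate 1 the fit called 1 respiratory chain gene lower (against 0.614% of all genes), without db/+ replicate 2 or 3 it called 0 (0.342% and 0.135%), without db/db replicate 1 it called 39 (11%), without db/db replicate 2 it called 0 (0.606%) and without db/db replicate 3 it called 8 (1.78%). At an unadjusted limma p under 0.05, 54 were lower and 2 higher with all arrays, against 13.3% and 9.95% of all genes. Under the 3 omissions of a db/+ array 47, 55 and 49 were lower at that limit (against 11.2%, 10.7% and 9.71% of all genes), and under those of a db/db array 56, 47 and 44 (19.8%, 10.5% and 11.3%). The median over the genes stayed between -0.36 and -0.46, and between 73 and 76 of the 83 genes were negative. Quantile normalization between arrays moved the median to -0.21 and left 0 calls among all genes on the array, with 18 respiratory chain genes lower at an unadjusted limma p under 0.05, against 6.32% of all genes.

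**Figure D1:**
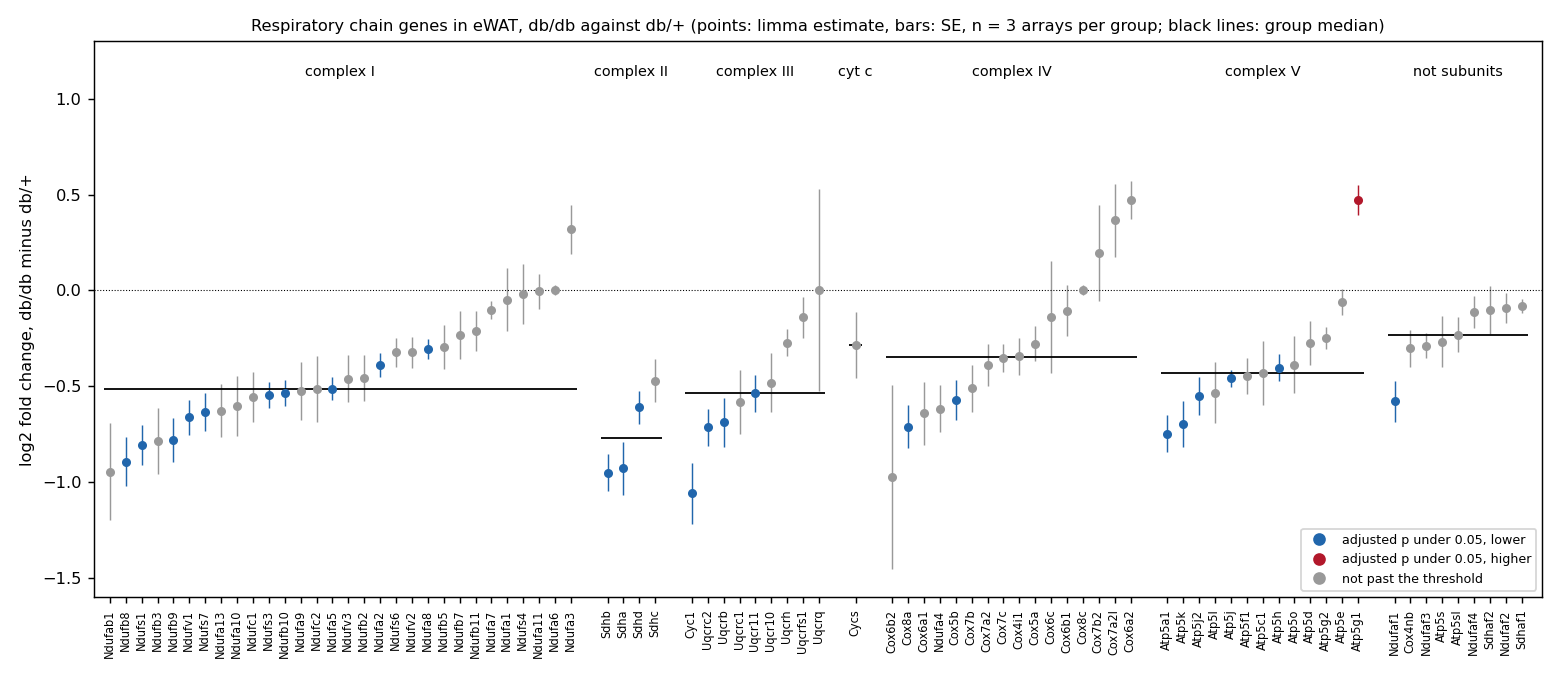
Each point is the log2 fold change, db/db minus db/+, of a respiratory chain gene, ordered within its complex, with the limma SE as the bar (n = 3 arrays per group) and the median of all genes tested in each group as a black line. The genes called lower (blue) lie between -1.06 and -0.31, Atp5g1 (red) lies at 0.47, and the 4 genes of complex II all lie below 0.

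Markers of several cell types differed between the groups as well. Of 13 adipocyte markers tested, 7 were called lower and 0 higher (10 lower and 0 higher at an unadjusted limma p under 0.05), with a median of -1.20. The summed Cy5 intensity of those markers was 119 to 150 on the db/+ arrays and 56.1 to 66.5 on the db/db arrays. Cidec, a bright marker, had no value on db/+ replicate 2 and on 1 db/db array. The sums of these arrays, 119 and 56.4, leave it out, so the sums are not over the same genes on every array. Of 14 macrophage markers 6 were called higher, with a median of 1.20. Of 10 epididymis epithelium markers 1, Cst8, was called higher, but it had no value on db/+ replicate 3 and db/db replicate 1, so that call rests on 2 arrays per group. The markers' median ratio was 0.74, 0.09 and -1.82 on the db/+ arrays and -1.81, 3.42 and 4.09 on the db/db arrays, and their summed Cy5 intensity was 1.44 to 11.7 on the db/+ arrays and 1.46, 142 and 149 on the db/db arrays. Without db/db replicates 2 and 3, which had the high epididymis values, the lone db/db array gave a median of -0.37 over the respiratory chain genes, with 72 of 83 negative and 4 called lower, against 3.86% of all genes. In that fit all the spread comes from the 3 db/+ arrays, and the lone db/db array is assumed to vary like them, so its calls say nothing of the variation between db/db mice. With the epididymis median as a covariate the median was -0.38 and 9 genes were called lower, against 2.20% of all genes. The part of adipocyte and macrophage content in the fall of the respiratory chain genes was not tested. Lepr itself was dim and did not pass the threshold (-0.12 ± 0.31, limma adjusted p = 0.864), and the place of its probe in the gene is unknown here, so it does not check the genotype labels.

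Because many of these genes fell together, the promoters in the RefSeq table (build GRCm38.p6, 250 bases before to 50 after each start) were searched on both strands for letters known from respiratory gene promoters. A window was found for 69 of the 84 genes. The NRF1 letters, GCGCA and GCGC with any 1 base between them, which form the core of the site bound by nuclear respiratory factor 1, occurred in 15 of the 69 genes (21.7%) and in 7.17% of 17491 protein-coding genes. Among the 18 called-lower genes with a window 6 held them, and among the other 51 genes 9 did. The YY1 letters AAGATGGCG were found in 8 genes (11.6% against 2.14%), the GABPA letters CCGGAAGT in 5 (7.25% against 5.69%) and the ERR letters TNAAGGTCA in 1, Sdhd (1.45% against 1.19%). By the same split into 18 called-lower and 51 other genes, YY1 letters were in 3 and 5, GABPA letters in 4 and 1 and ERR letters in 1 and 0. The differences between called-lower and other genes were not tested for any motif. No matches of different motifs overlapped. A match is a description of the letters, not of a bound site. Below are the 250 bases before the start, 5′ to 3′ on the gene's strand, for the 3 genes called lower with the lowest fold changes among those with NRF1 letters there, and for Atp5g1, the gene called higher, whose window holds none of the 4 motifs; capitals mark the NRF1 letters.
Sdha, chr13:74350241-74350490, minus strand: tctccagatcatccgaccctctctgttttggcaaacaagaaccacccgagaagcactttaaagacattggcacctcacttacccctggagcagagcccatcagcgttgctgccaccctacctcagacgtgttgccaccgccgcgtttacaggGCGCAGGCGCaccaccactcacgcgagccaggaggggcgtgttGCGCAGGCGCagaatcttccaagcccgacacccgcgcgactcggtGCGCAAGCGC
Atp5k, chr5:108434400-108434649, minus strand: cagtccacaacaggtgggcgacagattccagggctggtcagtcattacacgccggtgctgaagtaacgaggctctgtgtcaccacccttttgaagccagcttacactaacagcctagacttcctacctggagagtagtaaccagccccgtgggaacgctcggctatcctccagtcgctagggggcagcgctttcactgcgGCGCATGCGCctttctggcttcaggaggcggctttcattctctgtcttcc
Sdhd, chr9:50603850-50604099, minus strand: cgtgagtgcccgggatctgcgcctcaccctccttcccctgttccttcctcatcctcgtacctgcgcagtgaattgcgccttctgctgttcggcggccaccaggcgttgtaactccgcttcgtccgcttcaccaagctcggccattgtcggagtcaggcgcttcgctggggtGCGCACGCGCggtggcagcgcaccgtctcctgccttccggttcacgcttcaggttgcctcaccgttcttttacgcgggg
Atp5g1, chr11:96075632-96075881, minus strand: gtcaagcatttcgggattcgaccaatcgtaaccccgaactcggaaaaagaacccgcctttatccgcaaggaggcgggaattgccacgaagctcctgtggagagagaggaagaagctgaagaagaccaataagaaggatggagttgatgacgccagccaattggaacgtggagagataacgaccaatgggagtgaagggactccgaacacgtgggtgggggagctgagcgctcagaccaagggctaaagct
In the Sdha window the 3 matches end 89, 46 and 1 bases before the start, while the single matches of Atp5k and Sdhd end 41 and 70 bases before theirs.

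Complex I, the NADH dehydrogenase, had 31 genes tested, of which 11 fell and 0 rose (22 lower and 0 higher at an unadjusted limma p under 0.05). Its median was -0.51, and 29 of the 31 were negative. Falls occurred in each of its 3 modules: 3 of 7 genes of the N module, where NADH is oxidised, 4 of 7 of the Q module, where coenzyme Q is reduced, and 4 of 17 of the proton-pumping membrane arm. The medians of the modules were -0.39, -0.52 and -0.51, and differences between modules were not tested.

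In the N module, Ndufs1, the largest iron-sulfur subunit, had log2 ratios of -0.01, -0.04 and 0.06 in db/+ and -0.62, -0.81 and -0.99 in db/db. The groups lay apart, and the gene fell by 0.81 ± 0.10 (limma adjusted p = 0.0258), to 57.2% of the db/+ level. A second, dimmer probe gave -0.72. Ndufv1, which carries the flavin that accepts electrons from NADH, had ratios of -0.01, -0.11 and -0.11 against -0.58, -0.75 and -0.89 and fell by 0.66 ± 0.09 (adjusted p = 0.0285). Its partner Ndufv2, an iron-sulfur protein, did not pass (-0.32 ± 0.08, adjusted p = 0.0903), although its groups did not overlap. The accessory subunit Ndufa2 fell by 0.39 ± 0.06 (adjusted p = 0.0389). Ndufv3 was dim (mean db/+ Cy5 intensity 0.0733), and its 3 probes disagreed in sign (-0.46, -0.25 and 0.21).

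In the Q module, Ndufs7, which holds the last iron-sulfur cluster before coenzyme Q, had ratios of -0.03, -0.07 and -0.13 in db/+ against -0.56, -0.67 and -0.90 in db/db. The groups did not overlap, and the gene fell by 0.63 ± 0.10 (limma adjusted p = 0.0342). Ndufs3, a core subunit, fell by 0.55 ± 0.07 (adjusted p = 0.025), and the accessory subunit Ndufa5 by 0.51 ± 0.06 (adjusted p = 0.0223). Ndufa5 was even across arrays, at -0.51, -0.49 and -0.55 in db/db against 0.09, -0.00 and -0.10 in db/+. Ndufa6 had a ratio of 0.00 on all 6 arrays at a mean Cy5 intensity of 0.02, near the 0.01 step in which intensities were deposited, so its value carries little information.

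In the membrane arm, the accessory subunit Ndufb8 had ratios of 0.07, -0.14 and -0.03 in db/+ and -0.70, -0.97 and -1.11 in db/db. It fell by 0.89 ± 0.13 (limma adjusted p = 0.0301), to 53.8% of db/+. Ndufb9 fell by 0.78 ± 0.12 (adjusted p = 0.0333), Ndufb10 by 0.54 ± 0.07 (adjusted p = 0.0247) and Ndufa8 by 0.31 ± 0.05 (adjusted p = 0.0444). Ndufab1, the mitochondrial acyl carrier protein, had the lowest fold change of the complex, -0.95 ± 0.25, but its db/db arrays spread from -0.44 to -1.34 and it did not pass (adjusted p = 0.103). Ndufa3 had the highest, 0.32 ± 0.13 (adjusted p = 0.228), at mean Cy5 intensities of 0.13 and 0.167. Ndufa11 and Ndufa1, both bright, had values of -0.00 ± 0.09 and -0.05 ± 0.16, with overlapping groups.

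**Figure D2:**
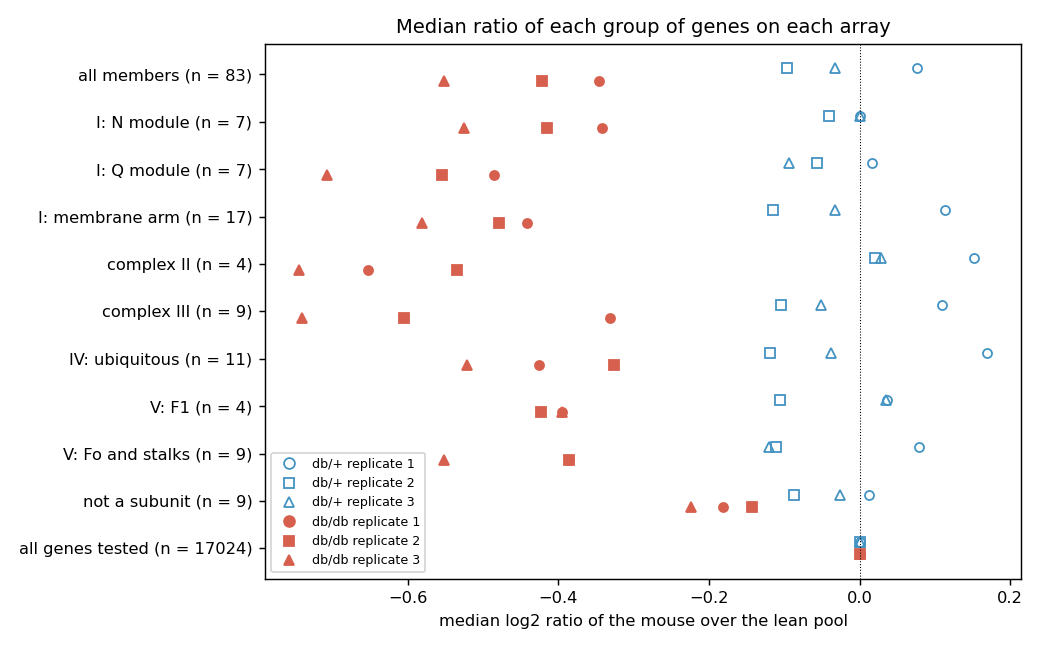
Each symbol is the median log2 ratio (mouse over lean pool) of a group of genes on 1 array, for the 3 db/+ arrays (open) and the 3 db/db arrays (filled). In all 10 groups of respiratory chain genes shown, the 3 db/db medians lie below the 3 db/+ medians, for all 83 genes at -0.35 to -0.55 against -0.10 to 0.08, while the median over all 17024 genes tested is at 0.

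Complex II, succinate dehydrogenase, links the citrate cycle to the chain, and 3 of its 4 genes fell; all 4 had non-overlapping groups. Its median of -0.77 was the lowest of the 5 complexes, though the differences between complexes were not tested. Without genes near the highest intensity, or with the mean over probes, it was -0.54, and complex III was also at -0.54 under both. Sdha, the flavoprotein that oxidises succinate, had ratios of 0.42, 0.12 and 0.14 in db/+ and -0.87, -0.48 and -0.76 in db/db. Sdhb, the iron-sulfur subunit, had 0.20, 0.14 and -0.06 against -0.84, -0.75 and -0.98. Neither gene overlapped between the groups: Sdha fell by 0.93 ± 0.14, to 52.5% of the db/+ level, and Sdhb by 0.95 ± 0.10, to 51.7% (limma adjusted p = 0.0336 and 0.0183). On 2 db/+ arrays both genes were within 1% of the brightest Cy5 value, which makes the sizes of their falls approximate, and a dim second probe of Sdha gave -0.02. The membrane anchor Sdhd, with ratios of 0.08, -0.07 and 0.05 against -0.47, -0.58 and -0.73, fell by 0.61 ± 0.08 (adjusted p = 0.0285). The other anchor, Sdhc, had -0.47 ± 0.11 and missed the threshold (adjusted p = 0.0790).

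Complex III, the cytochrome bc1 complex, had 9 genes tested, of which 4 fell and 0 rose (7 lower and 0 higher at an unadjusted limma p under 0.05), with a median of -0.54. Cyc1, the cytochrome c1 that hands electrons to cytochrome c, had the lowest fold change of all 83 genes. Its ratios were 0.32, 0.12 and -0.08 in db/+ and -0.69, -1.03 and -1.10 in db/db, and it fell by 1.06 ± 0.16 (adjusted p = 0.0332), to 48.0% of db/+. The core protein Uqcrc2 had ratios of 0.02, -0.04 and -0.19 against -0.67, -0.94 and -0.74 and fell by 0.71 ± 0.10 (adjusted p = 0.0268). It had 3 probes, which gave -0.71, -0.69 and -0.60. Of the small subunits, Uqcrb fell by 0.69 ± 0.13 (adjusted p = 0.0494) and Uqcr11 by 0.54 ± 0.10 (adjusted p = 0.0458). The other core protein, Uqcrc1, did not pass (-0.58 ± 0.17, adjusted p = 0.117). Uqcrfs1, the Rieske iron-sulfur protein, had -0.14 ± 0.11, with ratios of 0.11, -0.18 and 0.08 against -0.17, -0.02 and -0.23, which overlapped. Uqcrq was at 0.0133 to 0.0167 in mean Cy5 intensity, where 1 step of the deposited values is most of the signal.

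Cytochrome c (Cycs), the soluble carrier between complexes III and IV, had ratios of 0.14, -0.19 and -0.18 in db/+ and -0.06, -0.48 and -0.54 in db/db. The value of db/db replicate 1 lay within the db/+ range, and the fold change of -0.28 ± 0.17 did not pass (limma adjusted p = 0.400). The difference between Cycs and its docking partner Cyc1 was not tested.

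Complex IV, cytochrome c oxidase, had 16 genes tested, counting Ndufa4, which is now known as a subunit of this complex. Of these 2 fell and 0 rose (9 lower and 1 higher at an unadjusted limma p under 0.05), and the median was -0.35. The 11 ubiquitous subunits were all negative, with a median of -0.39. Cox8a, a small membrane subunit, had ratios of 0.17, 0.15 and -0.18 in db/+ and -0.69, -0.58 and -0.72 in db/db and fell by 0.71 ± 0.11 (adjusted p = 0.036), with 1 db/+ array near the highest intensity. Cox5b, a matrix-side subunit, had 0.11, -0.12 and 0.04 against -0.43, -0.53 and -0.73 and fell by 0.57 ± 0.10 (adjusted p = 0.0488). Ndufa4 (-0.62 ± 0.12, adjusted p = 0.0562), Cox6a1 (-0.64 ± 0.16, adjusted p = 0.0922) and Cox7c (-0.35 ± 0.07, adjusted p = 0.0631) had non-overlapping groups and missed the threshold. Cox6a1 was within 1% of the brightest Cy5 value on 2 db/+ arrays and of the brightest Cy3 value on 1 array, so its size is approximate. Cox6c was spread widely in db/db, at -0.62, -0.11 and 0.43, and its value of -0.14 ± 0.29 had the groups overlapping.

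Of the 4 tissue isoforms of complex IV all but Cox6b2 were dim, at mean Cy5 intensities up to 0.1 in both groups. Cox6a2, the heart and muscle isoform of subunit VIa, had ratios of 0.00 on each db/+ array and 0.68, 0.32 and 0.42 in db/db (0.47 ± 0.10, limma adjusted p = 0.0653), but its mean Cy5 intensity was only 0.0367 and 0.0567. Cox6b2, known as the testis isoform of subunit VIb, had -0.97 ± 0.48 (adjusted p = 0.301), where db/+ replicate 2 stood at 1.21 and the other db/+ arrays at -0.48 and -0.19. Its mean Cy5 intensity was 0.587 in db/+ and 0.28 in db/db, and a second, dimmer probe gave 0.01. Cox7b2 and Cox8c were at 0.02 to 0.03 in mean Cy5 intensity. Cox7a2l, which joins complexes III and IV into supercomplexes, had ratios of 0.09, -0.08 and 0.06 in db/+ and -0.01, 0.59 and 0.58 in db/db. Replicate 1 of db/db lay within the db/+ range and the others above it, and the value of 0.37 ± 0.19 did not pass (adjusted p = 0.324). Those others, db/db replicates 2 and 3, were also the arrays with high epididymis markers. Without them the value was -0.033, and a link between the 2 was not tested.

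Complex V, the ATP synthase, had 14 genes, of which 13 could be tested: 5 fell, 1 rose and 7 did not pass, with a median of -0.43. The F1 head makes ATP. Its alpha subunit, Atp5a1, had ratios of 0.01, 0.03 and 0.17 in db/+ and -0.57, -0.61 and -0.85 in db/db and fell by 0.75 ± 0.09 (limma adjusted p = 0.0247), to 59.6% of db/+. Atp5b, the catalytic beta subunit, had no value on 2 db/+ arrays and was not tested. Its ratio was 0.16 on the db/+ array that measured it and -0.64, -0.92 and -0.52 on the db/db arrays. Its Cy5 intensity was 28.65 on that db/+ array, within 1% of the highest there, and 20.83 to 23.9 on the db/db arrays, where it was below that limit. The small subunit Atp5e had -0.06 ± 0.07 (adjusted p = 0.604). Within F1 the values thus ran from -0.75 to -0.06.

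The Fo part and the stalks carry the proton channel and tie it to the head. Atp5j, coupling factor F6 of the peripheral stalk, had the smallest adjusted p of the 83 genes, with ratios of 0.12, 0.00 and 0.01 against -0.43, -0.39 and -0.42, and fell by 0.46 ± 0.05 (limma adjusted p = 0.017). Atp5h, also of the stalk, fell by 0.40 ± 0.07 (adjusted p = 0.0445). Atp5k, subunit e at the membrane, had 0.08, -0.15 and -0.12 against -0.55, -0.89 and -0.85 and fell by 0.70 ± 0.12 (adjusted p = 0.0427); its other probe gave -0.69. Atp5j2, subunit f, fell by 0.55 ± 0.10 (adjusted p = 0.0458).

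Atp5g1 was the only respiratory chain gene called higher. It encodes subunit c, which forms the rotating ring of Fo, and its paralog Atp5g2 encodes the same mature protein with a different import sequence. The ratios of Atp5g1 were -0.01, -0.14 and -0.24 in db/+ and 0.27, 0.32 and 0.43 in db/db, and its mean Cy5 intensity was 1.25 and 1.78. It rose by 0.47 ± 0.08 (limma adjusted p = 0.0398). A second, dim probe (mean Cy5 0.0267 in both groups) gave 0.53, and with the mean over both probes the gene no longer passed (adjusted p = 0.0937). Atp5g2 had ratios of -0.00, -0.11 and -0.12 against -0.24, -0.39 and -0.35 and did not pass (-0.25 ± 0.06, adjusted p = 0.0799). Within each array, Atp5g1 minus Atp5g2 was -0.01, -0.03 and -0.11 in db/+ and 0.51, 0.71 and 0.78 in db/db, so the groups did not overlap. The shift was 0.72, with an exact two-sided permutation p of 0.1, the smallest that 3 against 3 arrays allow, and 0.15 after adjustment over 6 pairs.

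**Figure D3:**
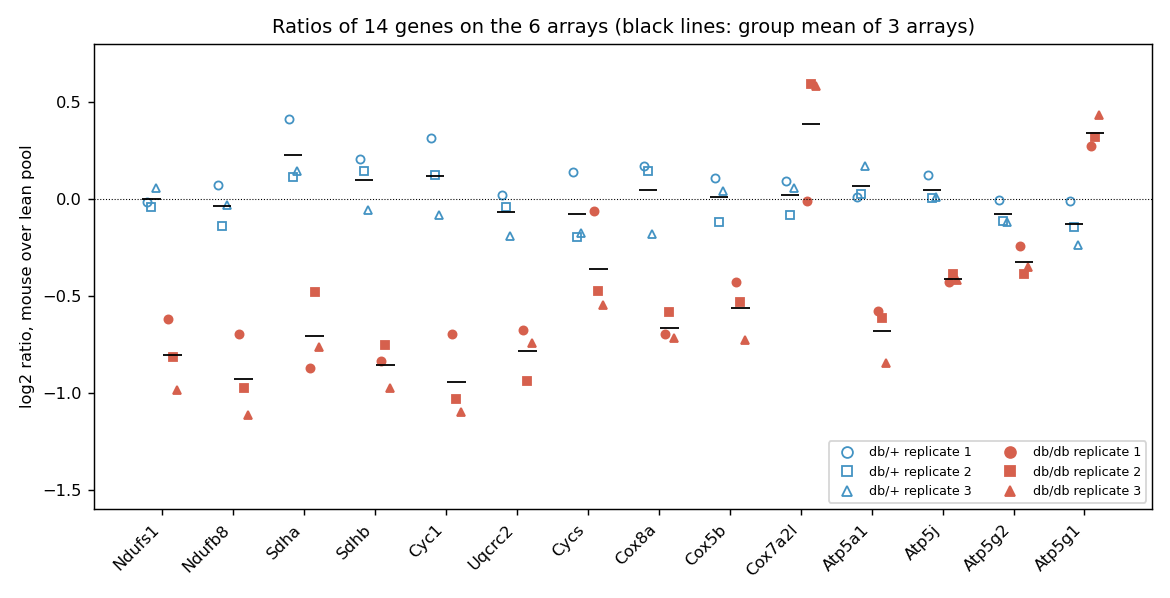
Log2 ratios of 14 genes on the 6 arrays (mouse over lean pool), db/+ open and db/db filled, with the mean of each group of 3 arrays as a black line. Cyc1, Sdha and Sdhb separate the groups by more than their spread, Atp5g1 moves from -0.24 to -0.01 in db/+ up to 0.27 to 0.43 in db/db, and Cycs and Cox7a2l overlap.

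The other 5 pairs of isoforms or of subunits within a complex were compared in the same way. Cox7a2 minus Cox7a2l was lower in db/db by 0.76 (groups apart, exact permutation p = 0.1, adjusted 0.15), and so was Cox6a1 minus Cox6a2, at -1.11 (groups apart, exact p = 0.1, adjusted 0.15). In that pair Cox6a2 is dim and Cox6a1 is near the highest intensity on some arrays. Cox5a minus Cox5b was higher in db/db by 0.29 (groups apart, exact p = 0.1, adjusted 0.15). Cox6b1 minus Cox6b2 shifted by 0.87 with overlapping groups (exact p = 0.2, adjusted 0.24), and Cox6c minus Cox7c by 0.21 (exact p = 0.7). No pair could reach 0.05 with 3 arrays per group.

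The 9 genes that share a symbol start without encoding subunits had a median of -0.23, and all were negative. Ndufaf1, an assembly factor of complex I, had ratios of 0.06, -0.01 and 0.06 in db/+ and -0.37, -0.52 and -0.75 in db/db and fell by 0.58 ± 0.11 (limma adjusted p = 0.0483). The assembly factors Ndufaf2, Ndufaf3 and Ndufaf4 had -0.09, -0.29 and -0.11, and the complex II assembly factors Sdhaf1 and Sdhaf2 -0.08 and -0.10; none of these 5 passed. Atp5s and Atp5sl, now named Dmac2l and Dmac2, had -0.27 and -0.23. Cox4nb, now named Emc8 and a part of the membrane protein insertion complex of the endoplasmic reticulum, had -0.30. The difference between these 9 genes and the subunits was not tested.

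The calls were unevenly spread over brightness. All 27 calls were among the 64 genes with a mean intensity above 1 in both channels: 40.6% of these 64 were called lower, against 7.26% of the 3955 genes of that brightness on the array, whose median was -0.04. Of the 19 dimmer genes 0 were called by limma (7 lower and 1 higher at an unadjusted p under 0.05), with a median of -0.11. Among the 13069 dimmer genes on the array 2.71% were called lower and 2.49% higher, so 0 of 19 is near that share. Across the 83 genes the log2 fold change ran against the log2 mean Cy5 intensity in db/+ with Pearson's r of -0.54 and Spearman's rho of -0.53, given as a description, since the genes share the 6 arrays. The db/+ Cy5 intensity also enters the fold change with a minus sign, so part of a negative correlation can come from the calculation alone. An intensity also depends on the probe, so it does not rank genes by expression. At the other end, 5 of the 83 genes lay within 1% of the highest intensity of an array on at least 1 array, 3 of them called.

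Genes that act beside the chain were described from lists by function. Among 7 other enzymes and carriers that pass electrons to coenzyme Q, 3 fell and 0 rose (6 lower and 0 higher at an unadjusted limma p under 0.05), with a median of -0.54. Gpd2, the mitochondrial glycerol 3-phosphate dehydrogenase, had ratios of -0.05, -0.13 and -0.15 in db/+ and -1.55, -1.75 and -1.74 in db/db and fell by 1.57 ± 0.07 (adjusted p = 0.00375). Sqor, which oxidises hydrogen sulfide, fell by 1.28 ± 0.12 (adjusted p = 0.0165). Dhodh, of pyrimidine synthesis, fell by 0.39 ± 0.05 (adjusted p = 0.0232).

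Assembly factors were counted beside all genes, of which 3.77% were called lower and 13.3% were lower at an unadjusted limma p under 0.05. Of 16 for complex I, 1 fell (Ndufaf1, above) and 10 were lower at an unadjusted p under 0.05, with a median of -0.29. Of 17 for complex IV, 2 fell, namely Surf1, needed for the heme centres, by 0.35 ± 0.03 (adjusted p = 0.0157) and the mitochondrial RNA-binding protein Lrpprc by 0.49 ± 0.08 (adjusted p = 0.0418), with a median of -0.12. For complexes II, III and V, 0 of 4, 0 of 5 and 0 of 1 were called (0, 3 and 0 lower at an unadjusted p under 0.05). Coenzyme Q synthesis had 0 of 11 called (4 lower at an unadjusted p under 0.05) and a median of -0.24. Among 9 genes for ADP/ATP carriers, the phosphate carrier, mitochondrial creatine kinases and VDAC, 1 fell, the ADP/ATP carrier Slc25a4 (-0.44 ± 0.05, adjusted p = 0.0234).

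The next lists hold regulators and the import machinery. Of 11 transcription regulators of respiratory genes, 1 was called lower, the coactivator Ppargc1a, with ratios of 0.29, -0.09 and -0.14 in db/+ and -1.16, -0.90 and -0.93 in db/db (-1.02 ± 0.15, limma adjusted p = 0.0317), and the median of the list was -0.06. Nrf1, which encodes the factor whose letters were searched above, had -0.06 ± 0.07 (adjusted p = 0.578). Of 10 genes for maintenance and expression of mitochondrial DNA, 1 fell (Mterf3, -0.40 ± 0.05, adjusted p = 0.0224), with a median of -0.28. Of 16 genes for protein import, 2 fell (Pmpcb and Gfer, by 0.74 ± 0.10 and 0.60 ± 0.09) and 1 rose (Tomm20, by 0.31 ± 0.05), with a median of -0.16.

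**Figure D4:**
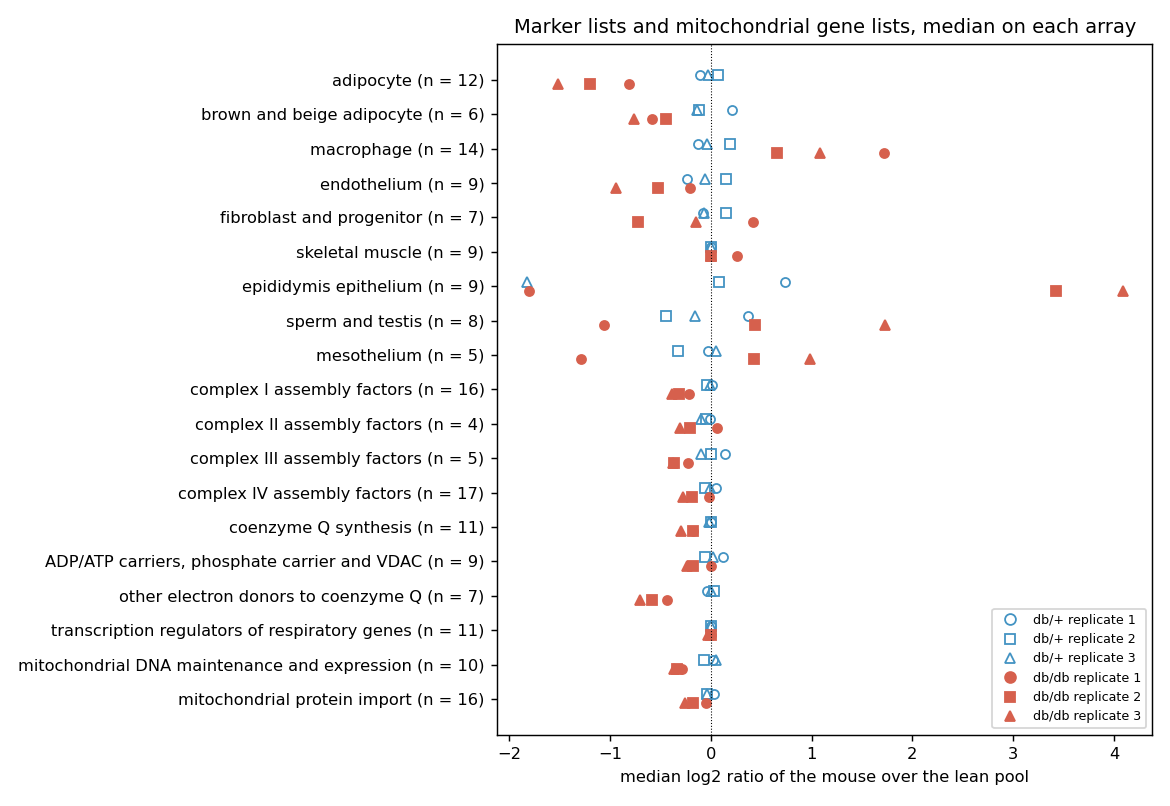
Median log2 ratio (mouse over lean pool) on each array for 9 lists of cell type markers and for the lists of mitochondrial genes, db/+ open and db/db filled. The complex V assembly list, with 1 gene tested, is not shown. The number n is that of genes measured on all 6 arrays. The adipocyte medians are -0.81 to -1.51 in db/db, the macrophage medians 0.65 to 1.72, and the epididymis medians run from -1.81 to 4.09 within the db/db arrays.

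The other marker lists are given by their counts. Of 6 markers of brown and beige adipocytes 3 were called lower and 1, Ucp1, higher, with a median of -0.57; Cox8b, left out by the rule, is among those called lower. Of 9 endothelial and 7 fibroblast markers 1 each fell, Egfl7 and Ly6a, with medians of -0.46 and -0.15. Of 9 skeletal muscle markers 1, again Cox8b, was called (2 lower and 3 higher at an unadjusted limma p under 0.05). The median was 0.00, and this list holds Cox6a2. Of 8 sperm and testis markers 0 were called by limma (0 in either direction at an unadjusted p under 0.05), and this list holds Cox6b2 and Cox8c. The db/db arrays differed widely among themselves in these markers. Their median ratio was 0.37, -0.44 and -0.16 on the db/+ arrays and -1.06, 0.44 and 1.73 on db/db replicates 1, 2 and 3. Of 5 mesothelium markers 0 were called (1 lower at an unadjusted p under 0.05). The mesothelium medians were -0.03, -0.32 and 0.05 on the db/+ arrays and -1.29, 0.43 and 0.98 on db/db replicates 1, 2 and 3. Skeletal muscle markers Ckm, Tnnt3, Mylpf and Pvalb were at mean Cy5 intensities of 0.07 or below in both groups. Acta1 was brighter, at 5.05 in db/+ and 2.09 in db/db (-1.48 ± 0.56, limma adjusted p = 0.207). Tnni2 was at 0.15 and 0.24 (0.63 ± 0.24, limma adjusted p = 0.211). The part of these cell types in the result was not tested.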

How the data were processed

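Per the labels' protocols, total RNA (100 ng) was amplified in 2 rounds and labelled; the scans were processed with Agilent Feature Extraction 8.5.1.1, per the submitters' processing notes. In 1 table the authors deposited an intensity of each channel per probe, in steps of mostly 0.01 on a normalized scale, with background correction and normalization not given in the sources used here. They also deposited log10 ratios per numbered sample; per-array ratios above are these values turned to log2. The db/db columns of the intensity table carry mouse numbers, so db/db intensities have no replicate number.

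Fold changes come from log2 of Cy5 over Cy3 without further normalization, fitted in R 4.3.3 with limma 3.58.1 (linear models of the 2 groups, unblocked, and eBayes), and p-values were adjusted by Benjamini-Hochberg over the 17024 genes with at least 2 values per group. Symbols were updated through a RefSeq table (1790 probes by synonym, 317 by accession), and a gene was represented by its brightest probe among those measured on all 6 arrays. The fit was tested on simulated data. Same-numbered db/db and db/+ arrays deviated from their group means with correlations of -0.48, -0.41 and -0.02. Correlations between arrays of different numbers are not given here, so these values do not settle whether the numbers pair the samples.

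The genes and lists were chosen with earlier results of these data known. Named are the called genes (1 is counted but not reported here by name), the 2 lowest and 2 highest of each complex, isoform pairs, genes that are not subunits, those with disagreeing probes, and the called genes of each mitochondrial list, at most the 3 with the smallest p; Ndufv2, Uqcrc1, Ndufa4, Ndufa1, Ndufa11, Nrf1, the dim genes and the marker genes are named besides, and that choice was made with the values in view. Alternatives covered normalization, source, channel, dim and bright probes, probe choice, variance model, replicate block, the epididymis markers and leaving out arrays.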

Additional observations from a re-analysis of the deposited data

How the results depend on the processing

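Over all alternatives run, between 67 and 76 of the tested respiratory chain genes were negative, and their median stayed between -0.21 and -0.46; it moved beyond the spread between db/db arrays under quantile normalization (-0.21). The count called lower (26) and higher (1, of 1138 genes called in all) was 0 and 0 (of 0) under quantile normalization and under eBayes with trend and robust, where 18 and 54 were lower at an unadjusted limma p under 0.05 (2094 and 3895 genes of the whole array in either direction), 1 and 0 (of 373) with Cy5 alone, 57 and 4 (of 6673) with array weights, where 1 db/db array had weight 5.46 and the others 0.406 and 0.164, 9 and 1 (of 859) with the epididymis covariate, and 4 and 2 (of 1791) without db/db replicates 2 and 3. With the replicate number as a block, 0 were called lower and 0 higher (0 of all genes). At an unadjusted limma p under 0.05, 52 were lower and 2 higher in that fit, and 3085 of all genes passed. Whether the numbers pair the samples was not settled. Loess gave 2 higher and the mean over probes 0 higher. Leaving out 1 array gave 0 to 39 lower, 0 to 3 higher and 54 to 3417 genes in all. Of all calls 43.7% were higher, but 56.5% with the covariate, 57.4% without db/+ replicate 3, 58.6% without db/db replicate 2 and 63.4% without db/db replicates 2 and 3.

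Quantile normalization moved the medians of complexes I to V from -0.51, -0.77, -0.54, -0.35 and -0.43 to -0.25, -0.58, -0.28, -0.20 and -0.29. Complex I moved to -0.38 with the covariate and -0.42 without db/db replicates 2 and 3, and over single arrays left out ranged from -0.55 to -0.41. Complex II moved to -0.54 without genes near the highest intensity and -0.54 with the mean over probes, complex III to -0.32 without db/db replicates 2 and 3, and complex IV ranged from -0.42 to -0.29 over single arrays left out.

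The following signs changed. Under quantile normalization Atp5g2 became 0.000950, Ndufaf2 0.00764, Sdhaf1 0.083 and Sdhaf2 0.045; Sdhaf2 became 0.00107 with the covariate. Over single arrays left out Cox6b1 ranged from -0.19 to 0.019 (above 0 without db/+ replicate 1), Cox6c from -0.40 to 0.12 (above 0 without db/db replicate 1) and Cox6c minus Cox7c from -0.066 (without db/db replicate 3) to 0.45. Without db/db replicates 2 and 3, Cox7a2l became -0.033, Cycs 0.0145 and Sdhaf2 0.15. The causes of these changes were not tested. Other comparisons of single named genes kept direction and side of the threshold in 744 cases, lost the call in 287 and gained it in 28. Dim intensities near the deposited step and intensities near the highest limit the sizes.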

Other observations

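In the median of all 83 respiratory chain genes db/db replicate 1 had the value nearest to db/+ and replicate 3 the farthest. That order of the 3 arrays held for 42 of the 83 genes, and 18 had their lowest db/db ratio on replicate 1. The shares of all genes with these patterns are not given here, so the counts do not set these genes apart. Among these 18, Cox6c ran from -0.62 on db/db replicate 1 to 0.43 on replicate 3, and Ndufa1, a membrane arm subunit of complex I, from -0.35 to 0.17. Atp5c1, the gamma subunit of the F1 head, had -0.69, -0.31 and -0.23, and Atp5s had -0.51, -0.06 and -0.13. These genes were chosen after their values were seen, and the difference between arrays was not tested. On db/db replicates 1, 2 and 3 the adipocyte markers had medians of -0.81, -1.20 and -1.51, the same order. The epididymis markers had medians of -1.81, 3.42 and 4.09 there.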
